A study of Homo sapiens with 21 samples.

Results

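The 9 genes described here encode complement and acute phase proteins. They were taken by symbol from the 23201 gene symbols of an RNA-seq time course, with earlier results of these data known. They are *C1R*, *C1S* and *SERPING1* of the classical complement pathway, *C3* and *CFB* of its amplification, the serum amyloid genes *SAA1* and *SAA2*, and *LCN2* and *PI3*, which encode secreted antimicrobial proteins of epithelia. The cells were HMLE, a widely used line of mammary epithelial cells of human origin that were immortalized, either untreated (d0) or treated with TGFβ for 1, 4, 7, 10, 15 or 20 days (d1 to d20), with 3 libraries at each of the 7 timepoints and 21 libraries in all. TGFβ is a cytokine that drives epithelial-to-mesenchymal transition (EMT), in which epithelial cells lose their junctions and take on mesenchymal features. All libraries came from 1 cell line, and no untreated cells of the later days were analysed here, so days of TGFβ and days in culture cannot be told apart.

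Complement is a cascade of plasma proteases that tags surfaces for clearance. In the classical pathway the proteases C1r and C1s are activated within the C1 complex and are held in check by the C1 inhibitor, the product of *SERPING1*. C3 is the central component that all routes of activation cleave, and factor B, the product of *CFB*, supplies the protease of the alternative pathway convertase that amplifies C3 cleavage. Serum amyloid A proteins are acute phase reactants, made in large amounts by the liver in inflammation and also by epithelia. Lipocalin 2 (*LCN2*) binds bacterial siderophores, and *PI3* encodes elafin, an inhibitor of neutrophil elastase. Many of these genes are known targets of NF-κB, of the acute phase factors C/EBP and STAT3, or of interferon signalling.

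The unit throughout is the deposited normalised read count, which is the reads of a gene divided by one size factor per library and is not corrected for gene length. Libraries held between 18847917 and 22667754 reads. On the log2 scale, libraries of one timepoint outside d7 were 0.214 to 0.243 apart (root mean square over genes), and at d7 the third library stood apart, at 0.472 and 0.457 from the other two, which were 0.223 apart. Libraries of a timepoint are numbered below only by their order in the table, which names no replicates. Epithelial markers were present on every day, with a summed value of 8 markers of 351851.9 to 377719.9 at d0, 201138.5 to 204944.8 at d10, 499001.7 to 516364.1 at d15 and 341579.1 to 702828.0 at d7, and the summed value of 4 mesenchymal markers went from 9284.5 to 9681.7 at d0 up to 595208.2 to 613195.9 at d20. The epithelial sum was thus lowest at d10 and higher at d15 than at d10, as were 8 of the 9 genes below, and its part in their levels was not tested. Its markers did not move alike, since at d15 *KRT17* (log2 fold change 2.25 against d0), *KRT14* (0.71), *KRT8* (0.50) and *TP63* (0.28) were above untreated cells and *EPCAM* (-2.43), *KRT18* (-0.75), *KRT5* (-0.35) and *CDH1* (-0.18) below. The summed value of the 8 leukocyte markers was 631 to 704 at d0, 1851.6 to 1916.3 at d4, 1555.2 to 2169.7 at d7, 748 to 885 at d10 and 1504.1 to 1580.1 at d15, so it too was lower at d10 than at d7 and d15, and its part was not tested. Of these markers, *CD68* (log2 fold change 1.11 at d4) and *CSF1R* (2.2 at d7) were called higher by limma, whereas *PTPRC*, *CD3E* and *FCGR3A* had at most 3 reads in every library, as had *ALB*, *APOA1*, *TTR* and *SERPINC1* among the 5 hepatocyte markers. These are bulk libraries, in which fewer cells of a type and less RNA per cell cannot be told apart.

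All 9 genes passed the filter on low values, a mean of at least 10 over the 21 libraries, and were compared on log2(value + 1) by limma over the 13343 genes that passed, with Benjamini-Hochberg adjustment and a threshold of 0.05. The 6 comparisons with d0 share the same 3 untreated libraries. At d1, 8 of the 9 genes were lower than in untreated cells, beside 28.5% of all genes tested, and the ninth, *LCN2*, was not called. At d4, 5 genes were lower, beside 35.3% of all genes, and *SERPING1* was higher, beside 36.9%. At d7, *C1R*, *C1S* and *SERPING1* were higher and *SAA1*, *SAA2* and *PI3* lower. These shares of the 9 genes were close to those of all genes, 34.6% and 32.6%. Without one library, 1 to 4 of the 9 genes were higher at d7 and 2 to 3 lower. All 9 were lower at d10, beside 30.7% of all genes, and 8 of them, all but *C3*, by at least 2-fold, beside 7.34%. The median log2 fold change at d10 was -1.88 for the 9 genes and 0.03 for all genes tested.

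At d15, *C1R*, *C1S* and *C3* were above untreated cells, beside 39.2% of all genes, and *PI3* was below, beside 37.3%. At d20, *C3* was higher, beside 32.5%, and 5 genes (*CFB*, *LCN2*, *PI3*, *SAA2* and *SERPING1*) were lower, beside 30.2%. From one sampled day to the next, 7 genes rose from d1 to d4, beside 32.9% of all genes. Between d4 and d7, *C1R*, *C1S* and *CFB* rose, beside 25.5% of all genes, and *SAA1* and *SAA2* fell, also beside 25.5%. All 9 fell from d7 to d10, beside 35.2%, and 6 of them by at least 2-fold, beside 9.09%. From d10 to d15 all but *PI3* rose, beside 39.3%, each of these 8 by at least 2-fold, beside 12% of all genes, and *PI3* fell, beside 40.5%. From d15 to d20, 5 genes fell, beside 36.3%, and *PI3* rose, beside 37.7%. Changes of at least 2-fold on the other days were fewer. Against d0, 5 genes were at least 2-fold lower at d1 (3.87% of all genes), 2 at d4 (5.03%), 2 at d7 (2.93%), *PI3* at d15 (8.66%) and 2 at d20 (4.72%), and *C1R* was at least 2-fold higher at d15 (11.7%). By the same measure 3 genes rose from d1 to d4 (4.19% of all genes) and 2 from d4 to d7 (2.27%), while 2 fell from d15 to d20 (7.43%) and *PI3* rose (7.55%).

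**Figure D1:**
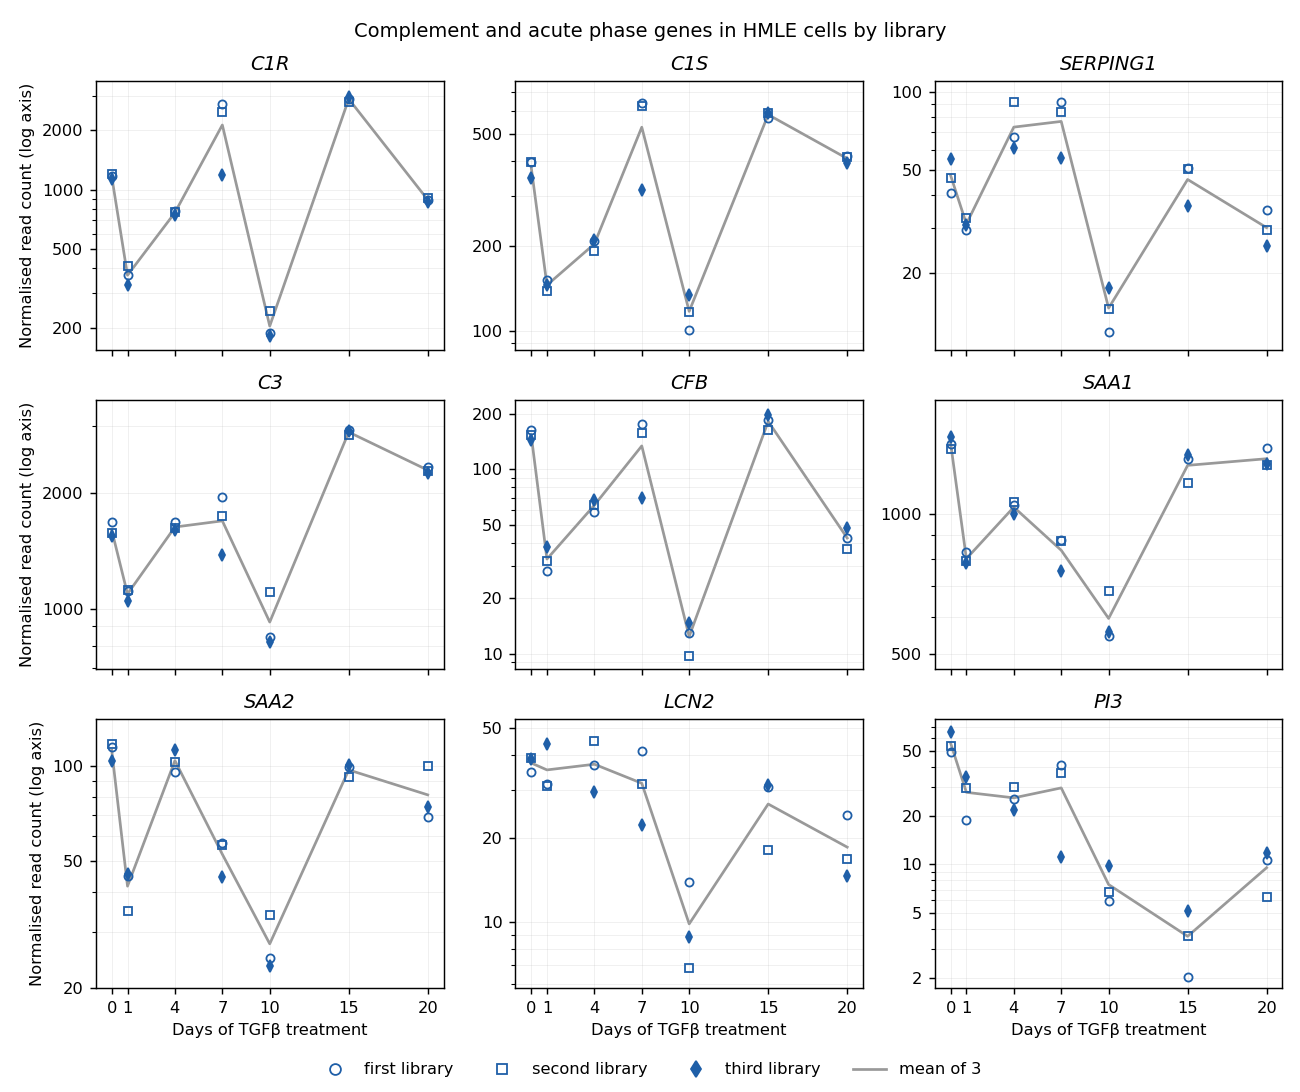
Normalised read count (log axis) against days of TGFβ treatment for the 9 genes, with one symbol per library and a grey line through the mean of 3. In all panels but that of *PI3* the lowest mean is at d10 with a higher mean at d15, and at d7 the third library (filled) is the lowest of its 3.

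**Figure D2:**
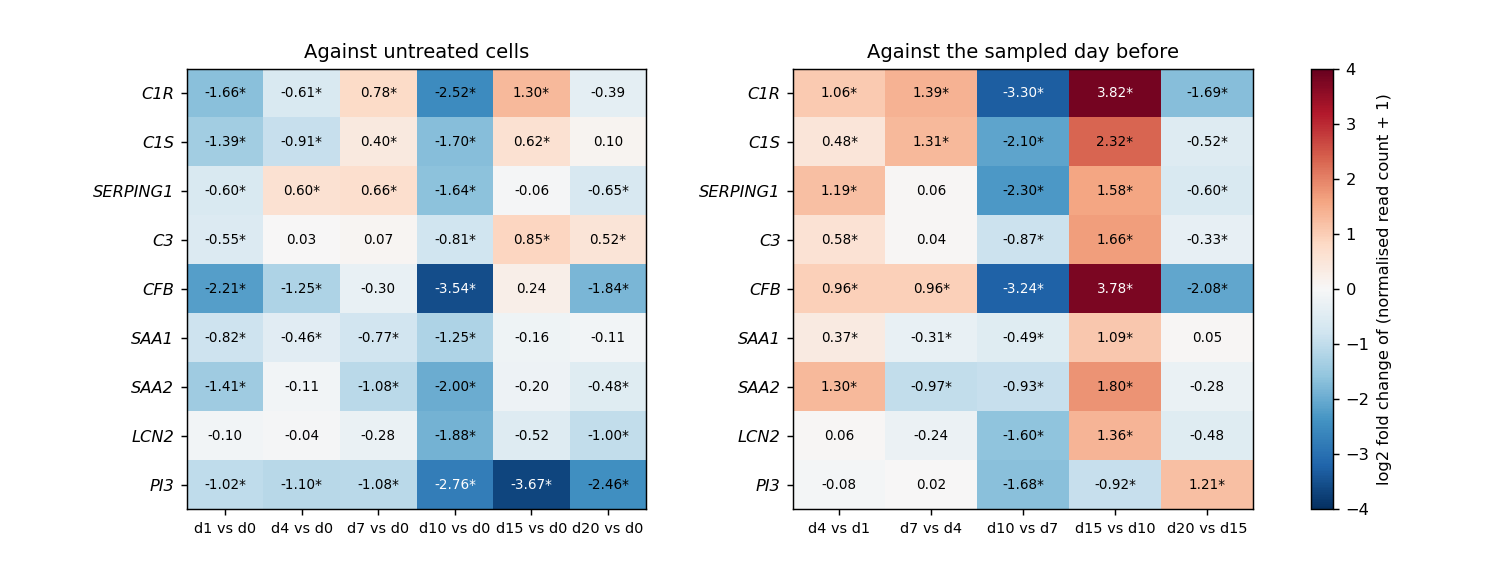
Log2 fold changes of normalised read count + 1 for the 9 genes against untreated cells (left) and against the sampled day before (right), where an asterisk marks a limma adjusted p under 0.05. The column d10 vs d0 is negative for all 9 genes, from -0.81 for *C3* to -3.54 for *CFB*, and d15 vs d10 is positive for all but *PI3*.

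The dip at d10 and the return at d15 were thus shared by 8 of the 9 genes, which were lower at d10 than at d7 and higher at d15 than at d10, and 29.7% of all genes tested met both conditions. A longer alternation, up from d4 to d7, down to d10, up to d15 and down to d20, was met by *CFB*, *C1R* and *C1S*, and by 7.04% of all genes. The lowest of the 7 means lay at d10 for 8 of the genes and at d15 for *PI3*. Of all genes tested, 17.7% had their lowest mean at d10 and 25.7% at d15. The highest mean was at d0 for *SAA1*, *SAA2*, *LCN2* and *PI3*, at d15 for *C3*, *CFB*, *C1R* and *C1S*, and at d7 for *SERPING1*, beside 19.4%, 23.3% and 8.21% of all genes tested.

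*C1R*, which encodes the protease that is first to be activated in the C1 complex, had a normalised read count of 1170.3, 1200.2 and 1130.9 in the untreated libraries. At d1 the values were 369, 410 and 327, and at d4 they were 778, 769 and 749. At d7 they were 2724.8, 2464.6 and 1194.1. The d1 and d4 libraries all lay below the untreated ones, whereas at d7 the first and second libraries were at least 2-fold above them and the third fell within their range. At d10 *C1R* was at 189, 242 and 182, the lowest of the course, and at d15 at 2896.1, 2785.8 and 2960.6, the highest. The d20 values, 888, 907 and 872, were again below all the untreated ones. *C1R* was therefore 5.73-fold lower at d10 than at d0 (log2 fold change -2.52, SE 0.18, adjusted p = 8.88e-11, limma) and 2.47-fold higher at d15 (1.30, SE 0.18, adjusted p = 1.42e-06). Between d10 and d15 it rose 14.1-fold (3.82, SE 0.18, adjusted p = 5.5e-14, limma), and no d10 library came near any d15 library. At d7 it was higher than untreated (0.78, adjusted p = 0.000811, limma), and 1.15 without the third library (adjusted p = 6.81e-17). The difference at d20, -0.39, was not called (adjusted p = 0.0679, limma), and it was called when the first or the third d7 library was left out of the fit, with adjusted p = 0.0322 and 2.91e-06, when only d0 and d20 were fitted, and under both other scalings.

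*C1S* encodes the protease that C1r activates and that cleaves C4 and C2, and it lies close to *C1R* on chromosome 12 on the opposite strand. Its values were 398, 397 and 349 at d0, 152, 138 and 145 at d1, and 207, 191 and 210 at d4. At d7 they were 640.57, 624.5 and 315.52. At d10 they were 101, 117 and 134, and at d15 they were 566, 594 and 593. The first and second d7 libraries and all d15 libraries lay above every untreated one, the third d7 library lay below them, and the d1, d4 and d10 libraries were all lower. *C1S* was 3.26-fold lower at d10 (-1.70, SE 0.17, adjusted p = 1.28e-08, limma) and 1.53-fold higher at d15 (0.62, SE 0.17, adjusted p = 0.00235). At d20 it stood at 418, 413 and 394, overlapping d0 (0.10, adjusted p = 0.625, limma). The increase at d7 was small (0.40, SE 0.17, adjusted p = 0.0425, limma). It was 0.73 without the third d7 library (adjusted p = 2.55e-09), and was not called without the first or second one (0.22 and 0.24, adjusted p = 0.262 and 0.236), nor without any single d0 library (adjusted p = 0.0596 to 0.134). It was also not called in a fit of d0 and d7 alone (adjusted p = 0.215), with no filter on low values (adjusted p = 0.0614) or after rescaling to equal library totals (0.21, adjusted p = 0.274). The increase from d1 to d4, 0.48 (adjusted p = 0.0169, limma), was just not called without the second d1 library (0.45, adjusted p = 0.0523), by edgeR (adjusted p = 0.0501) or with quantile normalization (0.39, adjusted p = 0.0515).

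The proteases moved together, with r = 0.95 between the log2 values of *C1R* and *C1S* over the 21 libraries, which share their timepoints. The ratio of the normalised read count of *C1R* to that of *C1S* is not corrected for length, so only its change between days is of use. It was 3.07 ± 0.153 (SD, n = 3) in untreated cells, 1.77 ± 0.371 at d10, then 4.93 ± 0.221 at d15 and 2.18 ± 0.0466 at d20. The d15 ratios, 5.12, 4.69 and 5.0, lay above those of all other timepoints, and the d10 ratios, 1.88, 2.07 and 1.36, below all those of d0. At d7 the ratio was 4.25, 3.95 and 3.78 in the 3 libraries, so the third library had about the same balance of the pair as the other two although both genes were lower there. The ratios are given as a description, since an exact permutation test of 3 libraries against 3 gives no two-sided p under 0.1.

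**Figure D3:**
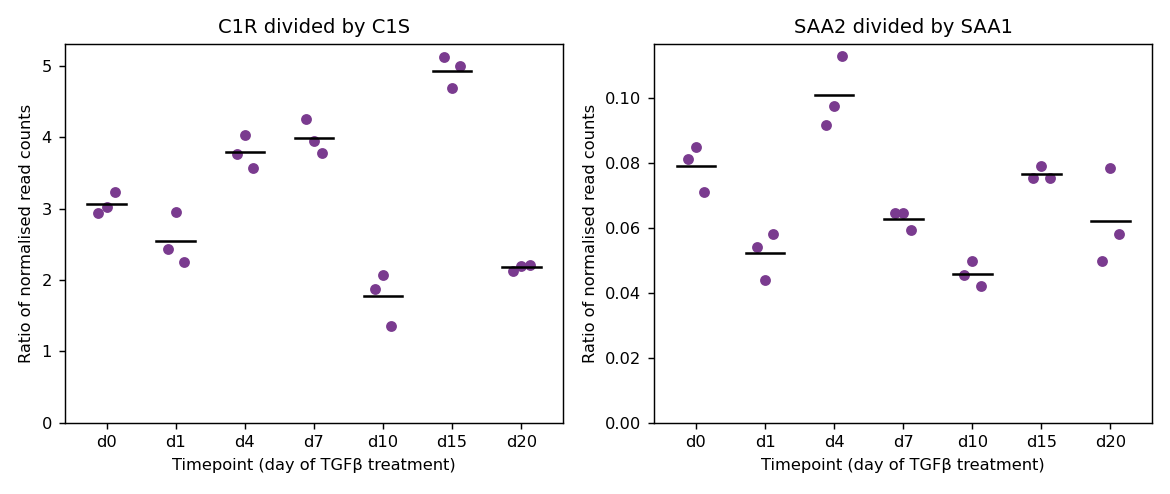
Ratio of normalised read counts in each library (points) and the mean of 3 (bars) by timepoint, for *C1R* over *C1S* (left) and *SAA2* over *SAA1* (right). *C1R* over *C1S* is lowest at d10 and highest at d15, and *SAA2* over *SAA1* is lowest at d10 and highest at d4.

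*SERPING1*, the gene of the C1 inhibitor, was expressed at a low level, and its course differed from those of the proteases. Its values were 40.9, 46.6 and 55.4 at d0 (46, 55 and 56 reads), 29.3, 32.8 and 30.8 at d1, and 67.3, 91.5 and 60.7 at d4. At d7 they were 91.8, 83.4 and 55.8, and at d10 they were 11.9, 14.6 and 17.6. The d4 and d7 libraries were all above the untreated ones, the third d7 library by little, and the d1 and d10 libraries were all below. *SERPING1* was higher at d4 (0.60, SE 0.21, adjusted p = 0.0151, limma), when both proteases were lower than in untreated cells. At d7 it was also higher (0.66, SE 0.21, adjusted p = 0.00874), and at d10 it was 3.11-fold lower (-1.64, adjusted p = 6.06e-07). At d15, with 51.0, 50.6 and 36.3, it overlapped d0 (-0.06, adjusted p = 0.812, limma), on the day when *C1R* and *C1S* had their highest means, and at d20 it was lower (35.0, 29.5 and 25.5; -0.65, adjusted p = 0.0103). The smaller of these differences depended on single libraries. The call at d4 was lost without the first d0 library (0.50, adjusted p = 0.0688) or the second d4 library (0.43, adjusted p = 0.101) and with rescaling to equal totals (0.40, adjusted p = 0.0847), and that at d7 without the first d7 library (0.52, adjusted p = 0.0557). The calls at d1 and d20 were lost without the third d0 library (-0.49 and -0.54, adjusted p = 0.0858 and 0.0539), the first d1 library (-0.56, adjusted p = 0.0546) or the third d20 library (-0.55, adjusted p = 0.0525). The decrease from d15 to d20, -0.60 (adjusted p = 0.0147, limma), was lost without the first or second d15 library or the third d20 library (-0.51, -0.52 and -0.49) and with quantile normalization (-0.40).

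*C3*, the component on which all complement pathways converge, had values of 1679.3, 1579.3 and 1552.4 at d0. It was lower at d1 (1115.0, 1116.9 and 1047.0) and at d10 (846, 1103.9 and 819), and higher at d15 (2917.5, 2837.3 and 2912.9) and d20 (2343.6, 2291.2 and 2262.0). Neither the d1 and d10 libraries nor the d15 and d20 libraries overlapped the untreated ones. The log2 fold changes were -0.55 at d1, -0.81 at d10 (SE 0.10, adjusted p = 2.13e-07, limma), 0.85 at d15 (SE 0.10, adjusted p = 6.32e-08) and 0.52 at d20 (adjusted p = 7.93e-05). *C3* was thus the only one of the 9 genes that was called higher than in untreated cells at d20. At d4 and d7 *C3* was not called (0.03 and 0.07), and these differences turned to -0.17 and -0.13 with libraries rescaled to equal totals. Without the third d7 library it was higher at d7 than at d0 (0.21, adjusted p = 0.00531, limma) and than at d4 (0.18, adjusted p = 0.0181). The rise from d10 to d15 was 3.16-fold (1.66, SE 0.10, adjusted p = 1.21e-12, limma).

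*CFB* fell furthest below its untreated level of the 5 complement genes. The values were 164, 154 and 143 at d0, 28.2, 31.8 and 37.7 at d1, and 58.9, 64.3 and 68.5 at d4. At d7 they were 176, 157 and 69.8, and at d10 they were 12.9, 9.72 and 14.7, which are 13, 10 and 15 reads. At d15 they were 185, 163 and 198 and at d20 42.4, 36.8 and 48.0. The d1, d4, d10 and d20 libraries were all below the untreated ones, and the d15 libraries and the first and second d7 libraries overlapped them. *CFB* was 4.63-fold lower at d1 (-2.21, SE 0.23, adjusted p = 5.51e-08, limma), 11.6-fold lower at d10 (-3.54, SE 0.23, adjusted p = 1.95e-11) and 3.58-fold lower at d20 (-1.84, adjusted p = 6.85e-07). It rose 13.7-fold from d10 to d15 (3.78, SE 0.23, adjusted p = 3.61e-12, limma) and stood at 0.24 relative to untreated cells at d15 (adjusted p = 0.361), a difference that was called when only d0 and d15 were fitted (adjusted p = 0.0341). The rise from d4 to d7, 0.96 (adjusted p = 0.00193, limma), was not called in a fit of those days alone (adjusted p = 0.0575). At d7 it was -0.30 relative to d0 (adjusted p = 0.274, limma) and 0.12 without the third library (adjusted p = 0.551). Exons of *CFB* overlap exons of a transcript of *C2* on the same strand in GENCODE, those of *C1R* overlap *C1RL* and those of *C1S* overlap *EMG1*, so reads there could be assigned to either gene.

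For *CFB*, *C1R* and *LCN2*, windows upstream of an annotated start were found in RefSeq (GRCh38.p14). They are shown because windows were found for only 3 of the 9 genes, and any part of the motifs in their levels was not tested. Capitals mark matches on either strand to an NF-κB motif (GGGA and CC with 4 bases between them), a GAS motif for STAT factors (TTC and GAA with 3 bases between) or an ISRE motif for interferon factors (TTTC and TTTC with 2 bases between). The 250 bases before the start are given 5′ to 3′ on the strand of the gene, for *CFB* at chr6:31945845-31946094 (+ strand), for *C1R* at chr12:7091894-7092143 (- strand) and for *LCN2* at chr9:128149203-128149452 (+ strand).
CFB: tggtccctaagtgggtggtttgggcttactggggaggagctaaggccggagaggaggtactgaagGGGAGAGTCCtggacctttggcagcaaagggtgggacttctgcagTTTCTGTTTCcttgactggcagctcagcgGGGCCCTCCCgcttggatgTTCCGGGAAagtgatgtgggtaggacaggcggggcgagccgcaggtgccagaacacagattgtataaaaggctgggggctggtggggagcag
C1R: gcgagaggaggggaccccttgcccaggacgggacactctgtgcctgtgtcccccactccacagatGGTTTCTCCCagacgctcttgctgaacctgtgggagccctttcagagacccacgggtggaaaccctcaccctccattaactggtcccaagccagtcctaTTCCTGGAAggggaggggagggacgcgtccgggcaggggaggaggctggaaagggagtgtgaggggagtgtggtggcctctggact
LCN2: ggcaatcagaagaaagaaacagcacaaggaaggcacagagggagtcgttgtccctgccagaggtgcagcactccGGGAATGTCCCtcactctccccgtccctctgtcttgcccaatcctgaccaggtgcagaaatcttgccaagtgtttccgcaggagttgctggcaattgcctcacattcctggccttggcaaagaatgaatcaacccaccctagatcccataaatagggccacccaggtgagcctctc
The *CFB* window held 2 matches to the NF-κB motif, GGGAGAGTCC and GGGCCCTCCC, 1 to GAS, TTCCGGGAA, and 1 to ISRE, TTTCTGTTTC. That of *C1R* held 1 NF-κB match, GGTTTCTCCC, and 1 GAS match, TTCCTGGAA, and a second *C1R* window, at chr12:7092446-7092695, held none. The *LCN2* window had 2 overlapping NF-κB matches, GGGAATGTCC and GGAATGTCCC, in one stretch. Of 35116 windows of this length in the RefSeq table, 22.6% held the NF-κB motif, 6.57% the GAS motif and 3.02% the ISRE motif. A match of letters is not a measured site.

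*SAA1* and *SAA2* are neighbours on chromosome 11 and encode nearly the same acute phase protein. Their coding sequences in GENCODE version 29 are 369 bases long with the stop codon, and the stretch from position 200 to 369 is printed to show how alike they are, with the bases that differ in capitals.
SAA1: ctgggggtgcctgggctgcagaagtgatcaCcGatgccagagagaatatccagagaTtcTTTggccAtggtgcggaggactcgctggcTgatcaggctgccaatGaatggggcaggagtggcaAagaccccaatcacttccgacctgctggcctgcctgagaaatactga
SAA2: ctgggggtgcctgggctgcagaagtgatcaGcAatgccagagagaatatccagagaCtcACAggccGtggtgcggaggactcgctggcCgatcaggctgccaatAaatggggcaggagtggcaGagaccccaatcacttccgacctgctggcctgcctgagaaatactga
Over their whole length they differ at 11 bases (97% identity), 10 of which lie in this stretch. The longest identical run is 186 bases, and 137 of the 320 possible 50-base windows (42.8%) are the same in both genes. Reads from those stretches cannot be assigned to one gene by sequence, so part of the value of either may come from the other, and *SAA2* shares exons with the *SAA2-SAA4* readthrough as well.

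*SAA1* had values of 1415.9, 1379.2 and 1462.3 at d0 and was lower at d1 (829, 792 and 785), d4 (1044.3, 1059.4 and 999.7), d7 (881, 874 and 753) and d10 (547, 684 and 559). None of these libraries reached an untreated one. At d15 (1311.8, 1167.7 and 1335.3) it was close below the untreated range, and at d20 (1385.4, 1274.5 and 1281.8) it overlapped that range. *SAA1* was 2.39-fold lower at d10 (-1.25, SE 0.07, adjusted p = 2.56e-12, limma). The difference at d15 was -0.16 (adjusted p = 0.0535, limma). That value lay at the threshold and was called by edgeR (-0.18, adjusted p = 0.0221), in the fit of d0 and d15 alone, under both other scalings, and without the third d15 library (-0.20, adjusted p = 0.0387), the first or the third d7 library (adjusted p = 0.048 and 0.01) or the first or second d10 library (adjusted p = 0.0467 and 0.0209). At d20 the difference was -0.11 (adjusted p = 0.194, limma), called under both other scalings (-0.31 and -0.20) and in the fit of d0 and d20 alone (adjusted p = 0.0262).

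*SAA2* had larger log2 decreases than *SAA1* at d1, d7 and d10, but not at d4. Its values were 115, 117 and 104 at d0, 45.0, 34.9 and 45.6 at d1, and 95.7, 103 and 113 at d4. At d7 they were 57.0, 56.3 and 44.7, at d10 24.9, 34.0 and 23.5, and at d15 98.95, 92.3 and 100.5. The d1, d7 and d10 libraries were all below the untreated ones, whereas d4 overlapped them and d15 lay just below. *SAA2* was 2.65-fold lower at d1 (-1.41, SE 0.16, adjusted p = 1.56e-07, limma) and 4.01-fold lower at d10 (-2.0, SE 0.16, adjusted p = 4.3e-10), and it rose 3.49-fold from d10 to d15 (1.80, adjusted p = 1.2e-09). At d20 it was lower (68.9, 99.98 and 74.4; -0.48, adjusted p = 0.0135, limma), and this call was lost without the first or the third d20 library (-0.37 and -0.42, adjusted p = 0.078 and 0.0521). The d20 libraries overlapped those of d15 (-0.28, adjusted p = 0.124, limma), and without the second d20 library the difference was called (-0.44, adjusted p = 0.0247). The ratio of *SAA2* to *SAA1* was 0.079 ± 0.00714 (SD, n = 3) in untreated cells, 0.0521 ± 0.00728 at d1, 0.101 ± 0.0108 at d4 and 0.0457 ± 0.00388 at d10. The d1 and d10 ratios lay below all the untreated ratios and the d4 ratios above them. Over the 21 libraries the log2 values of the pair had r = 0.91, and the part of shared reads in this was not tested.

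*LCN2*, which encodes the siderophore-binding lipocalin 2, was the one gene with no called difference through d7. It had values of 34.7, 39.0 and 38.6 at d0, and the d1, d4 and d7 libraries, from 22.3 to 44.8, overlapped these. The d10 values were 13.9, 6.80 and 8.80 (14, 7 and 9 reads), all below the untreated ones. *LCN2* was 3.67-fold lower at d10 (-1.88, SE 0.28, adjusted p = 4.18e-06, limma) and rose 2.57-fold to d15 (1.36, adjusted p = 0.000137), when it was at 30.6, 18.1 and 31.1. The difference from untreated cells at d15, -0.52 (adjusted p = 0.0964, limma), was called in the fit of d0 and d15 alone (adjusted p = 0.0363) and under both other scalings (-0.67 and -0.72). At d20 it was 2.0-fold lower (24.4, 16.8 and 14.7; -1.0, SE 0.28, adjusted p = 0.00371, limma). The step from d15 to d20, -0.48 (adjusted p = 0.122, limma), was called without the second d15 library (-0.73, adjusted p = 0.0326) or the first d20 library (-0.68, adjusted p = 0.0496).

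*PI3*, the elafin gene, was the exception to the common course. It had values of 48.95, 53.4 and 65.3 at d0, 18.8, 29.7 and 34.7 at d1, and 25.2, 30.2 and 21.5 at d4. At d7 it was at 41.2, 36.5 and 11.2. At d10 it was at 5.97, 6.80 and 9.78, at d15 at 2.04, 3.62 and 5.18 (2, 4 and 5 reads), and at d20 at 10.6, 6.31 and 11.8. Every treated library lay below every untreated one, and the d10, d15 and d20 libraries lay below all those of d1, d4 and d7 except for the third d7 library, which was below 1 of the d20 libraries. *PI3* was lower on all 6 treated days, by 6.75-fold at d10 (-2.76, SE 0.38, adjusted p = 1.86e-06, limma), 12.8-fold at d15 (-3.67, SE 0.38, adjusted p = 1.73e-08) and 5.5-fold at d20 (-2.46, adjusted p = 9.77e-06). The decreases at d1, d4 and d7 (-1.02, -1.10 and -1.08, adjusted p = 0.0272, 0.0145 and 0.0176) were each lost without the third d0 library (-0.90, -0.98 and -0.96). That at d1 was also lost without the second d0 (-1.04) or the first d1 library (-0.77), that at d4 without the third d4 library (-0.98), and that at d7 without the third d7 library (-0.51, adjusted p = 0.17) or in the fit of d0 and d7 alone (adjusted p = 0.0741). The fall from d10 to d15 (-0.92, adjusted p = 0.0335, limma) rests on few reads. It was not called by edgeR (-1.02, adjusted p = 0.151) or DESeq2 (-1.05, adjusted p = 0.109), with a pseudocount of 10 (-0.36, adjusted p = 0.177), with no filter on low values, in the fit of those days alone, or without the second or the third d10 library (-0.97 and -0.74) or the first or second d15 library (-0.65 and -0.95). The rise from d15 to d20, 1.21 (adjusted p = 0.00729, limma), was not called with a pseudocount of 10 (0.52, adjusted p = 0.0619).

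At d7 the third library was the lowest of its 3 for all 9 genes, as it was for 41.7% of all genes tested. Relative to the mean of the other two, it was at 28.8% for *PI3*, 41.8% for *CFB*, 46% for *C1R*, 49.9% for *C1S*, 61.7% for *LCN2*, 63.7% for *SERPING1*, 74.3% for *C3*, 78.9% for *SAA2* and 85.8% for *SAA1*, beside a median of 101% over all genes. Over all genes this library was at a root mean square of 0.427 from the d4 means and 0.431 from those of d20, whereas the first d7 library was at 0.531 from the d4 and 0.506 from the d15 means and the second at 0.522 and 0.524. The summed epithelial markers at d7 ranged from 341579.1 to 702828.0 over the same libraries, and their part in these differences was not tested. With or without any one d7 library, all 9 genes were lower at d10 than at d7.

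**Figure D4:**
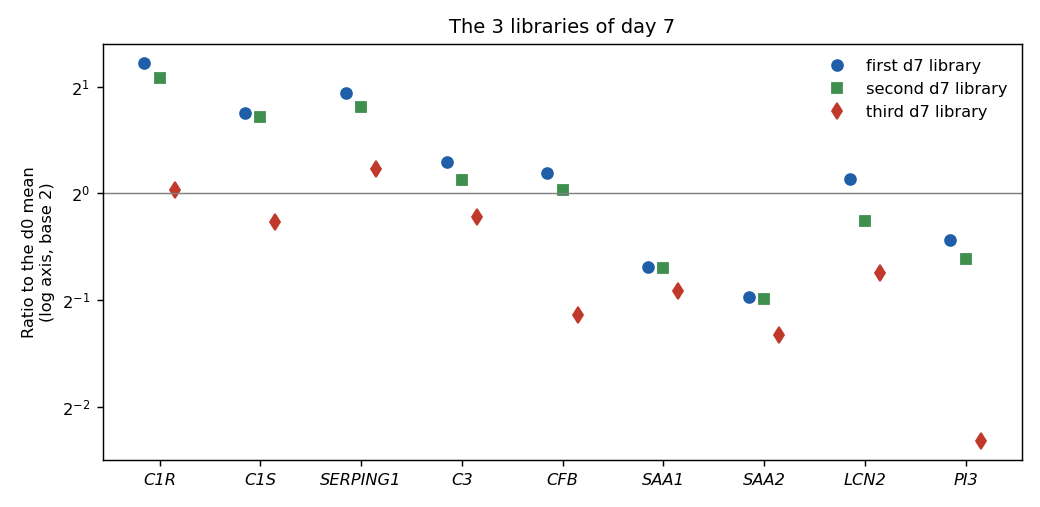
Ratio of each d7 library to the d0 mean (log axis, base 2; the line marks equality) for the 9 genes, one symbol per library. The third library lies below the other two for all 9 genes, by least for *SAA1* (85.8% of their mean) and by most for *PI3* (28.8%).

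Many neighbours in the order of the 7 levels were tied. Tied, or not differing, means here not called by limma, which pools the spread of all 7 timepoints. For *C1R* the order from the highest mean was d15, d7, d0, d20, d4, d1 and d10. Of these neighbours d0 and d20 (adjusted p = 0.0679, limma) and d20 and d4 (adjusted p = 0.306) were not called. The libraries of neither pair of days overlapped. *C1S* had the same order but for d20 and d0, and its 4 highest days, d15, d7, d20 and d0, did not differ between neighbours, nor did d1 and d10 (adjusted p = 0.159, limma). *C3* went from d15 over d20, d7, d4, d0 and d1 to d10, and d7, d4 and d0 did not differ between neighbours. For *CFB* (d15, d0, d7, d4, d20, d1, d10) the first 3 did not differ between neighbours, nor did d20 and d1. *SERPING1* (d7, d4, d0, d15, d1, d20, d10) fell into 3 tied pairs, d7 with d4, d0 with d15 and d1 with d20, above d10. *SAA1* (d0, d20, d15, d4, d7, d1, d10) had its first 3 days tied between neighbours, as were d7 and d1, and *SAA2* (d0, d4, d15, d20, d7, d1, d10) its first 4, with d7 and d1 (adjusted p = 0.0796, limma). For *LCN2* only d20 and d10 differed as neighbours (0.88, adjusted p = 0.0134, limma). *PI3* (d0, d7, d1, d4, d20, d10, d15) had d7, d1 and d4 tied, as well as d20 and d10.

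Across the 21 libraries, which share timepoints and scaling, the log2 values of *CFB* had r = 0.93 with *C1R* and 0.85 with *C1S*, and *C3* had r = 0.87 with both. *PI3* had r = -0.03 with *C1R*, -0.06 with *C1S* and -0.30 with *C3*. For *LCN2*, r with the other members went from 0.26 with *C3* to 0.75 with *SERPING1*, and was 0.61 with *PI3*. Among 5218 other tested genes whose timepoint means spanned at least 1 on the log2 scale, the genes most like each member were sought by Pearson's r over the 21 libraries. They were *NINJ1* (0.991), *NCRNA00086* (0.987) and *DNASE2* (0.978) for *C1R*, and *PDK2* (0.962), *TREM2* (0.96) and *BLVRB* (0.953) for *C1S*. For *C3* they were *TENC1* (0.965), *FTL* (0.96), which encodes the ferritin light chain, and *LOC645638* (0.95). *KIAA1370* (0.973), *SLC9A9* (0.971) and *SECTM1* (0.97) were most like *CFB*. *WDTC1* (0.933), *GCET2* (0.928) and *B3GALT4* (0.923) were most like *SERPING1*. For *SAA1* the ferritin heavy chain gene *FTH1* came first (0.932), before *MIF4GD* (0.882) and *APOL3* (0.866), and for *SAA2* they were *MIF4GD* (0.904), *RAP1GAP* (0.899) and *CX3CL1* (0.895). *LCN2* was most like *C1QTNF6* (0.891), *RAET1G* (0.884) and *RAB27B* (0.877). *PI3* was most like the cornified envelope gene *SPRR1B* (0.964), the interleukin 1 receptor antagonist gene *IL1RN* (0.923) and *MPZL2* (0.919).

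Of the other complement components, 25 genes that include the C1q chains, C2, C4, C5 to C9 and the lectin pathway, only 3 passed the filter, and 18 had at most 3 reads in every library. The 3 were *C5*, whose product starts the membrane attack complex, *MASP2*, a lectin pathway protease, and *C1RL*, a paralogue of *C1R* that overlaps it. All 3 were lower at d10, beside 30.7% of all genes tested. At d15 *MASP2* and *C1RL* were higher, beside 39.2%, while *C5* was not called. *C5* had a mean of 256 ± 4.24 (SD, n = 3) in untreated cells, 72.4 ± 9.1 at d1, 58.5 ± 10.3 at d10 and 220 ± 1.28 at d15, with log2 fold changes of -2.12 at d10 (SE 0.13, adjusted p = 4.34e-12, limma) and -0.21 at d15 (adjusted p = 0.136). *MASP2* was at 1.01 at d15 (adjusted p = 0.000873, limma), and its decrease at d10, -0.57, was close to the threshold (adjusted p = 0.0445). The median log2 fold change of the 3 was -0.91 at d10 and 0.27 at d15, beside 0.03 and 0.01 for all genes tested.

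Of 24 complement regulators and receptors, 9 were tested. At d10, 4 were higher and 2 lower, beside 37% and 30.7% of all genes tested. At d15, 5 were higher and 1 lower, beside 39.2% and 37.3%. *CD59*, which blocks the membrane attack complex at the cell surface, went from 5039.5 ± 93.3 (SD, n = 3) at d0 to between 11729.7 ± 118 at d15 and 19674.0 ± 213 at d10, and was higher on all 6 days (1.96 at d10, SE 0.03, adjusted p = 7.02e-23, limma). Its smallest increase, 1.22, was at d15, the day with the highest means of *C3*, *C1R* and *C1S*. *SUSD4*, a complement inhibitor, was at 9.67 ± 0.299 (SD, n = 3) before treatment, 86.6 ± 17.3 at d10 and 9.39 ± 2.86 at d15, so that it was high at d10 (3.02, adjusted p = 1.21e-10, limma) and not called at d15 (-0.08, adjusted p = 0.759). *CLU*, the gene of clusterin, had fallen at d10 (-2.15, adjusted p = 2.79e-08, limma), and *ITGB2*, the β chain of complement receptors 3 and 4, was higher at d10 and d15 (1.54 and 2.38).

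Of 23 other acute phase genes, 6 were tested, of which 2 were higher and 4 lower at d10, and 5 higher and 1 lower at d15, beside 37% and 30.7% of all genes at d10 and 39.2% and 37.3% at d15. *SERPINA3*, the antichymotrypsin gene, had means of 672 ± 33.1 (SD, n = 3) in untreated cells, 1918.1 ± 22.6 at d4, 139 ± 2.80 at d10, 1394.9 ± 15 at d15 and 153 ± 8.31 at d20. It was therefore below untreated cells at d10 (-2.26, SE 0.17, adjusted p = 1.73e-10, limma) and above them at d15 (1.05, adjusted p = 9.74e-06), as were *C1R*, *C1S* and *C3*. *SERPINA1*, the antitrypsin gene, and *PTX3*, a long pentraxin, were higher on all 6 days, with 1.77 and 2.31 at d15. *CD14*, a co-receptor for lipopolysaccharide, was lower on all 6, with -2.59 at d10 (adjusted p = 6.27e-05, limma) and -1.44 at d15 (adjusted p = 0.00965).

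Of 22 epithelial antimicrobial genes, 6 were tested. At d10, 4 were lower and 1 higher, beside 30.7% and 37% of all genes tested. At d15, 3 were lower and 1 higher, beside 37.3% and 39.2%. *S100A8* and *S100A9*, whose products form calprotectin, were lower on all 6 days, as *PI3* was. *S100A9* had 408 ± 12.2 (SD, n = 3) in untreated cells and fell to 39.6 ± 3.16 at d10 and 33.2 ± 3.94 at d15 (-3.34 and -3.59, adjusted p = 8.44e-13 and 1.27e-13, limma). *ELF3*, an epithelial transcription factor, was lower on all 6 days as well, with -4.15 at d10 (adjusted p = 7.29e-14, limma). *RNASE7*, an antimicrobial ribonuclease, was the gene that was higher, with 44.5 ± 5.44 (SD, n = 3) at d0 and 562 ± 20.8 at d10 (3.64, adjusted p = 5.77e-20, limma).

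The 21 NF-κB response genes and 16 of 20 acute phase inducers, receptors and factors were tested. Of the NF-κB genes, 10 were higher and 8 lower at d10, and 14 higher and 2 lower at d15, with medians of 0.18 and 0.91, beside the same shares of all genes (37% and 30.7%, and 39.2% and 37.3%). *CXCL1*, a neutrophil chemokine, was higher on all 6 days and most at d20 (4.26), *IER3* was higher on all 6 days (1.96 at d10), *IL8* was at 0.99 at d10 and 2.91 at d20, and *TNIP3* at 1.24 at d10 (adjusted p = 0.00196, limma). Other genes of this list, picked here after their values were seen, were below untreated cells at d10 and above them at d15. They are *SOD2* (-0.97 and 1.41), *NFKBIA* (-0.62 and 0.75), *NFKBIZ* (-0.79 and 0.51) and *BCL3* (-0.71 and 0.94). Because of that choice their likeness to the 9 genes is no result, and the genes of the list that met both conditions were not counted. *CXCL1*, *IER3* and *IL8* were higher on both days. Beside the same shares of all genes, 9 of the inducers, receptors and factors were higher and 5 lower at d10. At d15, 12 were higher and 3 lower. *SOCS3*, a feedback inhibitor induced by STAT3, had its peak at d15, with 565 ± 25.6 (SD, n = 3) against 41.7 ± 12.7 at d0 (3.77, adjusted p = 2.34e-14, limma), and *IL1A* and *TNF* were higher on all 6 days. *IL1RN* was lower on all 6, with -3.83 at d10 and -3.69 at d15 (adjusted p = 2.1e-11 and 2.13e-11, limma).

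All 20 interferon response genes were tested. At d7, 15 were higher and *WARS* was lower, at d10 2 were higher and 13 lower, and at d15 9 were higher and 3 lower, with medians of 0.77, -0.46 and 0.31. Of all genes tested, 34.6% were higher and 32.6% lower at d7, 37% and 30.7% at d10, and 39.2% and 37.3% at d15. *IFI6* went from 66.2 ± 5.04 (SD, n = 3) at d0 to 826 ± 500 at d7 and 88.0 ± 6.21 at d10, and *IFI44L* from 54.7 ± 8.52 to 365 ± 267 and 8.18 ± 0.501 (2.27 at d7 and -2.59 at d10, adjusted p = 0.000186 and 3.99e-05, limma). *GBP2*, an interferon-induced GTPase, was at 67.2 ± 9.33 (SD, n = 3) before treatment, 5.55 ± 1.99 at d10 and 71.5 ± 7.31 at d15, so that d10 was lower (-3.41, adjusted p = 4.45e-09, limma) and d15 not called (0.09, adjusted p = 0.799). *IRF9*, a subunit of the factor that binds ISRE motifs, was higher on all 6 days, with 2.21 at d7 and 0.63 at d10.

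**Figure D5:**
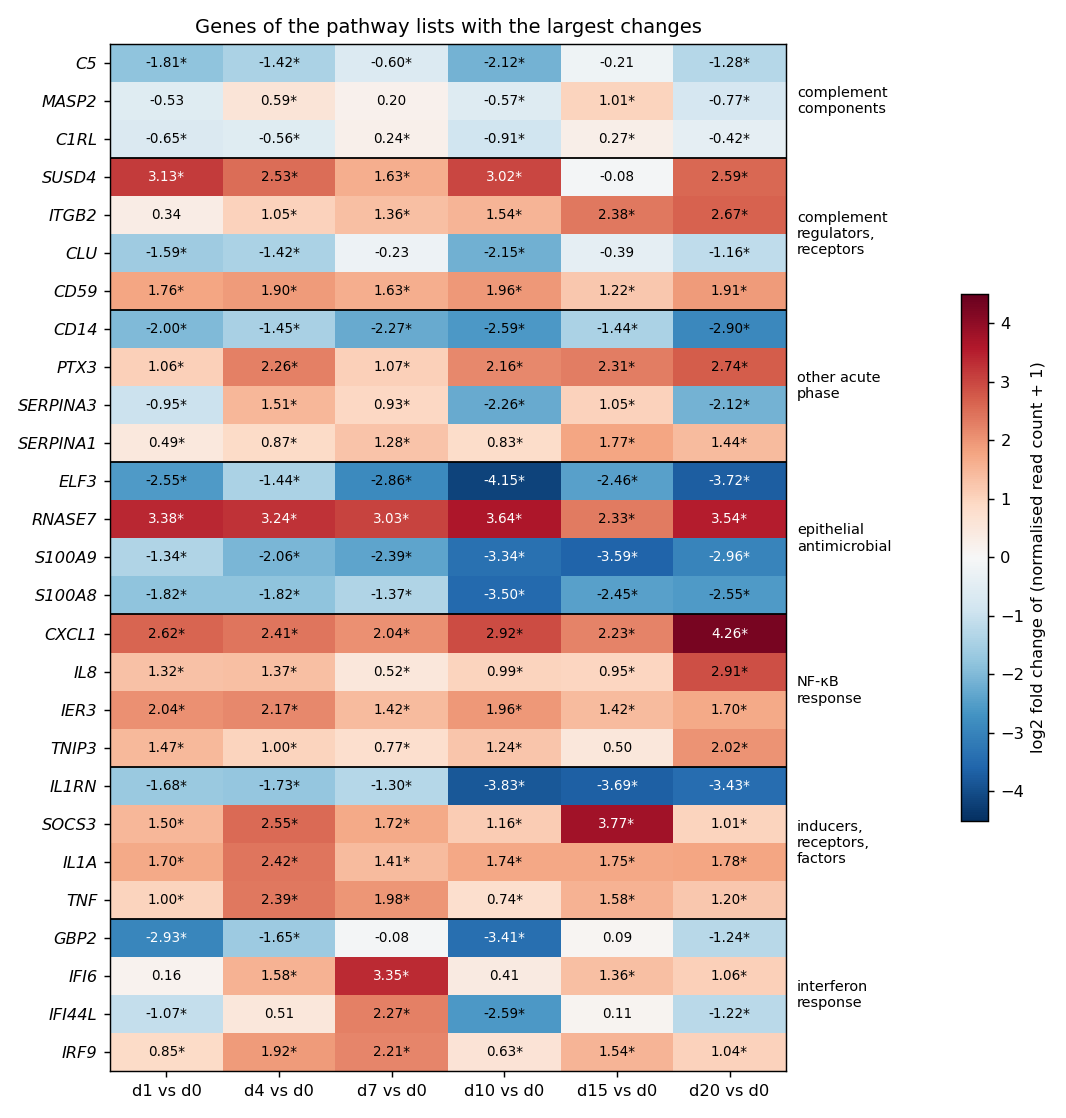
Log2 fold changes against untreated cells for the up to 4 tested genes with the largest change in each of 7 pathway lists, where an asterisk marks a limma adjusted p under 0.05. *C5*, *CLU*, *SERPINA3*, *GBP2* and *IFI44L* are negative at d10 as the 9 genes are, while *CD59*, *SUSD4*, *RNASE7*, *CXCL1* and *IER3* are positive there.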

How the data were processed

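RNA of HMLE cells before and on 6 days of TGFβ treatment was sequenced from biological triplicates, giving 21 libraries. The deposited signal is one normalised read count per gene symbol and library, which the authors made by dividing reads by a size factor and rounding to 2 decimals. The submitters' processing notes name STAR 2.7, Salmon 1.4 and hg19, and how reads were assigned to genes is not given in the sources used here. Whole reads were recovered from at least 99.84% of the values of each library (within 0.0051 of a deposited value). All 9 members and all lists were chosen with earlier results of these data known.

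Genes with a mean of at least 10 (13343) entered one limma fit (limma 3.58.1, R 4.3.3) of log2(value + 1), with one mean per timepoint, a trended prior and 14 residual degrees of freedom. P-values were adjusted by Benjamini-Hochberg within each contrast (threshold 0.05). They rest on the spread of libraries within timepoints, pooled over all timepoints and moderated by the prior, and not on the compared libraries alone. The third d7 library therefore also bears on comparisons without d7. The pseudocount understates changes of genes with few reads. At most 3 reads were taken as the floor, for counting error only. Named besides the members were, per list, up to 4 tested genes with the largest change against d0 on any day. Also named were genes that complete a count, markers, and per member the 3 genes with the highest r. The NF-κB genes *SOD2*, *NFKBIA*, *NFKBIZ* and *BCL3* were picked after their values were seen. CXCL8 was read as IL8 and C5AR2 as GPR77.

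Alternatives were another pseudocount (10), no filter, rescaling each library to equal totals, quantile normalization, fits of only the compared groups, edgeR 4.0.16 (quasi-likelihood) and DESeq2 1.42.0 on the recovered reads, a 2-fold minimum, and omission of single libraries. Coding sequences and exon overlaps came from GENCODE version 29, and upstream windows, found for 3 of the 9 genes, from RefSeq (GRCh38.p14). Figures were drawn with matplotlib 3.10.9.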

Additional observations from a re-analysis of the deposited data

Results flagged for a closer look

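In all, 4 of the genes were called above untreated cells on one day and below them on another. For each, the called days with the highest and the lowest log2 fold change against d0 were compared in the same limma fit. The p-values do not allow for that choice of days, and a called difference largely follows from it. *C1R* differed most between d15 and d10, by 3.82 on the log2 scale (SE 0.18, adjusted p = 5.5e-14, limma), from 1.30 above to -2.52 relative to d0. *C1S* differed by 2.32 between the same days (SE 0.17, adjusted p = 4.55e-11, limma), from 0.62 to -1.70, and *C3* by 1.66 (SE 0.10, adjusted p = 1.21e-12), from 0.85 to -0.81. *SERPING1* differed most between d7 and d10, by 2.30 (SE 0.21, adjusted p = 4.41e-09, limma), from 0.66 to -1.64. Of all genes tested, 28.7% were called higher on one treated day and lower on another.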

How the results depend on the processing

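No paired analysis was possible because a column of the table shows its timepoint and no replicate number. Over 693 values of the 99 member comparisons under the alternatives other than leaving out a library, 654 had the same direction and call, 15 gained and 15 lost a call, and 9 changed sign, none of them called in the reported fit. The fall of all 9 genes at d10, against d0 and against d7, and the rise of 8 from d10 to d15 had the same counts without any one of the 21 libraries. Rescaling to equal totals put the median log2 fold change over the tested genes, against d0, between -0.20 and -0.14. With it, 4 members were lower at d15, beside 6303 of 13352 genes, and 0 higher at d4, beside 3440. Quantile normalization gave 3 lower at d15, beside 5370 of 13343 genes. The fit of the 2 groups alone gave 3, beside 5184, and edgeR 2, beside 5189. *PI3*, called lower at d15 than at d10 by limma, was not called (0 members) with a pseudocount of 10, no filter, the 2 groups alone, edgeR, DESeq2 or a 2-fold minimum, and with a pseudocount of 10 there were 0 members higher at d20 than at d15. With the 2-fold minimum, 5 were lower at d1, 2 at d4 and 2 at d20, 0 were higher at d4, d7 and d20 and 1 at d15, 3 rose from d1 to d4, 0 fell from d4 to d7 and 2 fell from d15 to d20. Without one library, counts of members ranged from 1 to 4 higher at d7, 0 to 1 higher at d4, 6 to 8 lower at d1, 1 to 2 lower at d15, 3 to 6 lower at d20, and 0 to 1 lower from d10 to d15.

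Among the lists, the 2-fold minimum left 1 complement component lower at d10 and 1 higher at d15, 1 regulator lower at d10 and 3 higher at d15, 1 other acute phase gene higher at d10 and 3 at d15. It left 3 NF-κB genes higher and 0 lower at d10, and 7 and 0 at d15. Of the inducers it left 2 higher and 3 lower at d10, and 5 and 1 at d15. Of the interferon genes it left 8 and 0 at d7, 0 and 7 at d10, and 3 and 1 at d15. Of all 13343 genes it left 1173 and 391 at d7, 926 and 979 at d10, and 1560 and 1155 at d15. Rescaling gave 1 component higher and 1 lower at d15, and 5 regulators lower at d10 and 2 at d15. It gave 2 interferon genes lower at d7, 1 higher at d10 and 5 lower at d15. Of 13352 genes it called 6557 lower at d7, 6747 at d10 and 6303 at d15, and 2864 higher at d10 and 4044 at d15. The 2 groups alone gave 1 component, 2 regulators and 5 interferon genes lower at d15, beside 5184 of 13343 genes. With no filter, 5 components and 10 antimicrobial genes were lower at d10, and 7 antimicrobial genes were lower at d15. Of 19546 genes in that fit, 4498 were lower at d10, 5321 lower at d15 and 5035 higher at d10. In it 1 interferon gene was higher at d10, as with quantile normalization and edgeR (1 each, beside 4062 and 4559 of 13343 genes). By edgeR 1 component was lower at d15, beside 5189. Without one library, 2 to 3 components were lower at d10, 1 to 2 regulators and 3 to 5 interferon genes were lower at d15, and 1 to 3 interferon genes were higher at d10.

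The signs that changed were those of *SAA1* from d15 to d20 (-0.03, quantile normalization), *C3* at d4 (-0.17 rescaled, -0.06 quantile, -0.01 edgeR) and d7 (-0.13 rescaled), *C1S* at d20 (-0.10 rescaled), *SERPING1* from d4 to d7 (0.00, quantile), *LCN2* from d1 to d4 (-0.10, quantile) and *PI3* from d4 to d7 (-0.12, quantile). Leaving out single libraries, 18 of 2079 values changed sign, all of differences that were not called. The ranges were -0.01 to 0.09 for *SAA1* from d15 to d20, -0.05 to 0.21 for *C3* at d7 and -0.07 to 0.18 from d4 to d7, and -0.54 to 0.12 for *CFB* at d7. They were -0.16 to 0.10 for *SERPING1* at d15 and -0.08 to 0.28 from d4 to d7, -0.18 to 0.12 for *LCN2* at d4 and -0.08 to 0.22 from d1 to d4, and -0.33 to 0.10 for *PI3* from d1 to d4 and -0.31 to 0.59 from d4 to d7. The cause of these changes was not tested. Members with few reads (*PI3*, *LCN2*, *SERPING1*, and *CFB* at d10) are limited by depth, since a few reads move their values.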
